A study of Homo sapiens with 8 samples.

Results

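Dense clusters of distal peaks are stretches of open chromatin in which many called ATAC-seq peaks lie close together and away from gene starts. They were taken from 1 peak list, that of HepG2 cells fixed with 0.1% formaldehyde (FA) and cryopreserved. Peaks on chromosomes 1 to 22 were kept when the summit lay more than 1000 bp from every canonical transcription start site (TSS) of GENCODE 44, neighbouring summits at most 12.5 kb apart were joined, and joined groups of 8 or more peaks were called clusters. This gave 110 clusters of 28352 joined groups (0.388%), and they held 1014 of 42749 distal peaks (2.37%) in a list of 60628 peaks. Since clusters were chosen by the positions of called peaks in this list, their number, size, spacing and position are given as a description.

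HepG2 is a human cell line from a liver tumour, labelled wild type in genotype and grown in EMEM with 10% fetal bovine serum. The study made 8 bulk libraries with the Omni-ATAC protocol, in which cells were fixed with 0.1, 0.5, 1 or 5% FA and then either cryopreserved or flash-frozen, to ask which preservation keeps accessibility data usable. Only the peak list of the 0.1% FA cryopreserved library was analysed here, so no condition is compared and there is no replicate, and all intervals are exact binomial or order-statistic 95% intervals that cover counting error alone. A peak overlapped the TSS region of all 8 hepatocyte markers, including APOA1, APOB and TTR, and of 0 of 4 markers each for blood, for fibroblasts and stellate cells, and for endothelium.

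Regulatory elements such as enhancers bind transcription factors, which keep nucleosomes away and leave the DNA open to the Tn5 transposase used in ATAC-seq. Enhancers often sit in groups near genes that define a cell, and joining neighbours across a fixed distance is a common first step in describing such groups. Calling a group a super-enhancer needs a measure of coactivators or histone marks, which was not part of these data, so the name is not used here.

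The sequences below run from 50 bp before to 50 bp after the summit of the peak with the highest fold in 8 clusters, as read from hg38 on the plus strand. The first 4 come from the 12 clusters with the most peaks, and their windows held 1 of the motifs searched and named further on. They are not typical, as most windows of those 12 held no match. The windows without a match, not shown, were those of the clusters at ZFP36L2, FGFR3, UBE2O, C9orf50, GSE1, RNASE4 and EML4. The HNF4A window is shown because this liver transcription factor gene lay near a cluster, and the last 3 were chosen after their values were seen. Capitals mark a motif match on either strand, and windows in lower case throughout held none.
PTPN1 cluster, chr20:50423261-50423361: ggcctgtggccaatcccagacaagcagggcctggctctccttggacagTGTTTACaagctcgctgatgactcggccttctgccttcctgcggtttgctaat
TOB1 cluster, chr17:50884644-50884744: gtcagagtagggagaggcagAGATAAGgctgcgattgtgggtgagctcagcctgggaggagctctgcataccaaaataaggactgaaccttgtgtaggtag
BCAS1 to CYP24A1 cluster, chr20:54123873-54123973: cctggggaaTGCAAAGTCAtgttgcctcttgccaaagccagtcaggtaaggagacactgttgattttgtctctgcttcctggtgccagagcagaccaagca
ATP5F1D and MIDN cluster, chr19:1259660-1259760: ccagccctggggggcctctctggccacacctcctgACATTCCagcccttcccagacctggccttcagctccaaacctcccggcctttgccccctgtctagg
HNF4A cluster, chr20:44411350-44411450: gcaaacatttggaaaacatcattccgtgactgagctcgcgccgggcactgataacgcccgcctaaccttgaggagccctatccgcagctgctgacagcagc
SREBF1 cluster, chr17:17830889-17830989: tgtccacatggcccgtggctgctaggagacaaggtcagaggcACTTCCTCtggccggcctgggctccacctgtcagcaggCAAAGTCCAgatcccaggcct
MIR21 cluster, chr17:59829426-59829526: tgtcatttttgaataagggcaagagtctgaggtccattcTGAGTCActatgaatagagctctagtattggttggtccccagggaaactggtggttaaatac
GPR31 cluster, chr6:167204079-167204179: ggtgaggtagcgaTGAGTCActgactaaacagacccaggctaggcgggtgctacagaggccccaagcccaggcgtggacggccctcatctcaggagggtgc

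In the PTPN1 window the capitals are the FOXA motif, and in the TOB1 window the GATA motif. The window between BCAS1 and CYP24A1 held the NRF2 motif, and the window of the ATP5F1D and MIDN cluster, which lies in CIRBP, the TEAD motif. In the SREBF1 window the first capitals are the PU.1 motif and the second the HNF4A motif, whereas the MIR21 and GPR31 windows each held an AP-1 motif. The window with the highest fold at HNF4A itself held no exact match to any of the 19 motifs. Each motif was searched in a single spelling, so variant sites were not counted.

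The clusters spanned 26.2 to 94.7 kb, with a median of 43.4 kb, and covered 5.05 Mb together. Within them, neighbouring summits lay a median of 5.44 kb apart, while neighbouring distal peaks over all autosomes lay a median of 22.5 kb apart. Peaks themselves covered 4.18% of the span, so most bases in a cluster belonged to no distal peak. Sizes fell off steeply: 57 clusters had exactly 8 peaks, 22 had 9, 15 had 10, and 16 had 11 or more. Just outside the threshold, 78 groups of 7 peaks had a median span of 34.7 kb, a median fold of 9.76 and a median of 20 fragments per summit. The 57 groups of 8, just inside it, had a median span of 40.4 kb, a median fold of 9.73 and a median of 20 fragments, so fold and fragments were close on both sides of the threshold. The number of clusters follows from the joining distance: 10 kb gave 44 clusters and 15 kb gave 193.

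**Figure D1:**
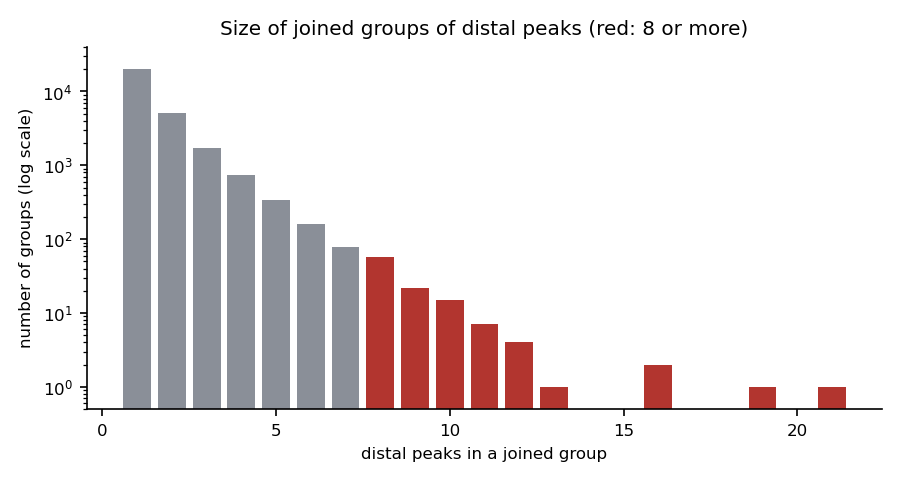
Number of joined groups (vertical axis, log scale) by the number of distal peaks in the group (horizontal axis), with groups of 8 or more in red and smaller groups in grey. Counts drop from 20005 single peaks to 78 groups of 7 and 57 of 8, and 1 group reached 21 peaks.

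The cluster with the most peaks, 21, lay on chr20:50388975-50483661 between genes. Its nearest protein-coding gene was PTPN1, which encodes a tyrosine phosphatase that acts on the insulin receptor, with the TSS 26.7 kb past the last summit and a TSS peak of fold 30.4. Fold here is how far the summit exceeded the background expected around it. Folds in this cluster ran from 5.27 to 26.6 with a median of 12.7, and the peak shown above, of fold 26.6, took only 10.0% of the summed fold. A second strong peak, of fold 25.7, lay 89.4 kb from the first summit, so the strongest peaks were not side by side. None of the 21 peaks lay in an annotated protein-coding or long noncoding RNA gene or within 1000 bp of any annotated transcript start.

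The second cluster, of 19 peaks on chr2:43127311-43222017, lay wholly in long noncoding RNA genes, LINC02580 among those that start inside it. It ended 4.59 kb from the TSS of ZFP36L2, which encodes an RNA-binding protein that promotes mRNA decay and which had a TSS peak of fold 14.03. Folds ran from 5.12 to 21.96 with a median of 9.10. Its span, 94.7 kb, was almost the same as that of the PTPN1 cluster. A further cluster of 8 peaks lay 122 kb away on the same chromosome, with a median of 52 fragments per summit, the highest median of all 110 clusters.

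The third cluster, of 16 peaks on chr4:1746431-1810124, held the TSS of FGFR3, a receptor tyrosine kinase for fibroblast growth factors. Peaks there were of moderate fold, 4.44 to 18.6 with a median of 7.42, over a high local background of 2.62 expected fragments. Within 50 kb lay TACC3, a spindle protein gene, TMEM129, SLBP, whose product binds histone mRNAs, and LETM1 of the mitochondrial inner membrane. Their TSS peaks had folds of 18.1 to 30.0, all above the fold of 9.54 at the TSS of FGFR3 itself.

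The fourth cluster, also of 16 peaks, lay on chr17:76446777-76533197 and held the TSS of 3 genes, UBE2O for a ubiquitin-conjugating enzyme, AANAT for an enzyme of melatonin synthesis, and RHBDF2 for an inactive rhomboid protein. UBE2O and RHBDF2 had TSS peaks of fold 21.7 and 22.4, while AANAT had none. Its last 2 summits lay within CYGB, a globin gene with no TSS peak, and PRCD, which overlap each other, and PRCD and the nearby ENSG00000284526 had TSS peaks of fold 13.6 and 17.1. The highest distal peak, of fold 24.7 and 70 fragments, was the last of the 16, and all others had a fold of 13.9 or less. A cluster of 11 peaks on the same chromosome ended 38.1 kb before it, nearest to PRPSAP1.

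The fifth cluster, of 13 peaks on chr9:129548675-129610614, lay 10.5 kb from C9orf50, which had no TSS peak, and within 50 kb of NTMT1, a protein N-terminal methyltransferase gene, and ASB6, with TSS folds of 10.3 and 21.1. Its 2 highest folds, 18.2 and 15.6, lay 8.91 and 48.9 kb from the first summit. By fragments the 2 highest peaks were neighbours, with 86 at 8.91 kb and 64 at 10.2 kb, and the remaining peaks had at most 49.

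Of the remaining top clusters, 4 lay outside or between protein-coding genes or within 1 such gene. The seventh, of 12 peaks on chr17:50878087-50933634, lay 11.7 kb from TOB1, an antiproliferative gene with a TSS fold of 19.9, and held a peak of fold 27.6, the highest in the top 12. WFIKKN2, a gene for a secreted protease inhibitor domain protein, lay 42.5 kb away with no TSS peak. The eighth, of 12 peaks on chr16:85514845-85571139, lay wholly in GSE1, 42.2 kb before its canonical TSS, and 5 of its folds were between 16.2 and 19.4. The ninth, of 12 peaks on chr20:54085140-54149159, filled the interval between BCAS1, TSS fold 23.2, and CYP24A1, the gene for the enzyme that inactivates vitamin D, TSS fold 6.74. Its highest peak had 119 fragments and a fold of 25.1. The twelfth, of 11 peaks on chr2:42086636-42141918, lay between PKDCC, a secreted kinase gene, and EML4, a microtubule-binding protein gene, with TSS folds of 15.8 and 23.3, and had the highest median fold of the 12, at 14.

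The tenth and eleventh clusters were gene-rich. The tenth, of 11 peaks on chr19:1240412-1266570, was the shortest of all 110 and the densest, at 4.21 peaks per 10 kb, and had the lowest median fold, 5.66. It held the TSS of ATP5F1D, a subunit of mitochondrial ATP synthase, and of MIDN, with TSS folds of 10.9 and 7.45. CIRBP, the cold-inducible RNA-binding protein gene, FAM174C and STK11, the kinase that activates AMPK, had TSS folds of 14.4, 15.5 and 26.3 within 50 kb, and CBARP and EFNA2 had no TSS peak. In this cluster 7 of 11 peaks lay within 1000 bp of an annotated transcript start that is not the canonical one. The eleventh, of 11 peaks on chr14:20657749-20697864, lay at the ribonuclease genes RNASE4, with a TSS fold of 5.00 at a start shared with ENSG00000259171, and ANG, angiogenin, with no TSS peak. ENSG00000259060, with a TSS fold of 8.76, OR6S1 and EDDM3A, both without a TSS peak, were also within 50 kb.

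**Figure D2:**
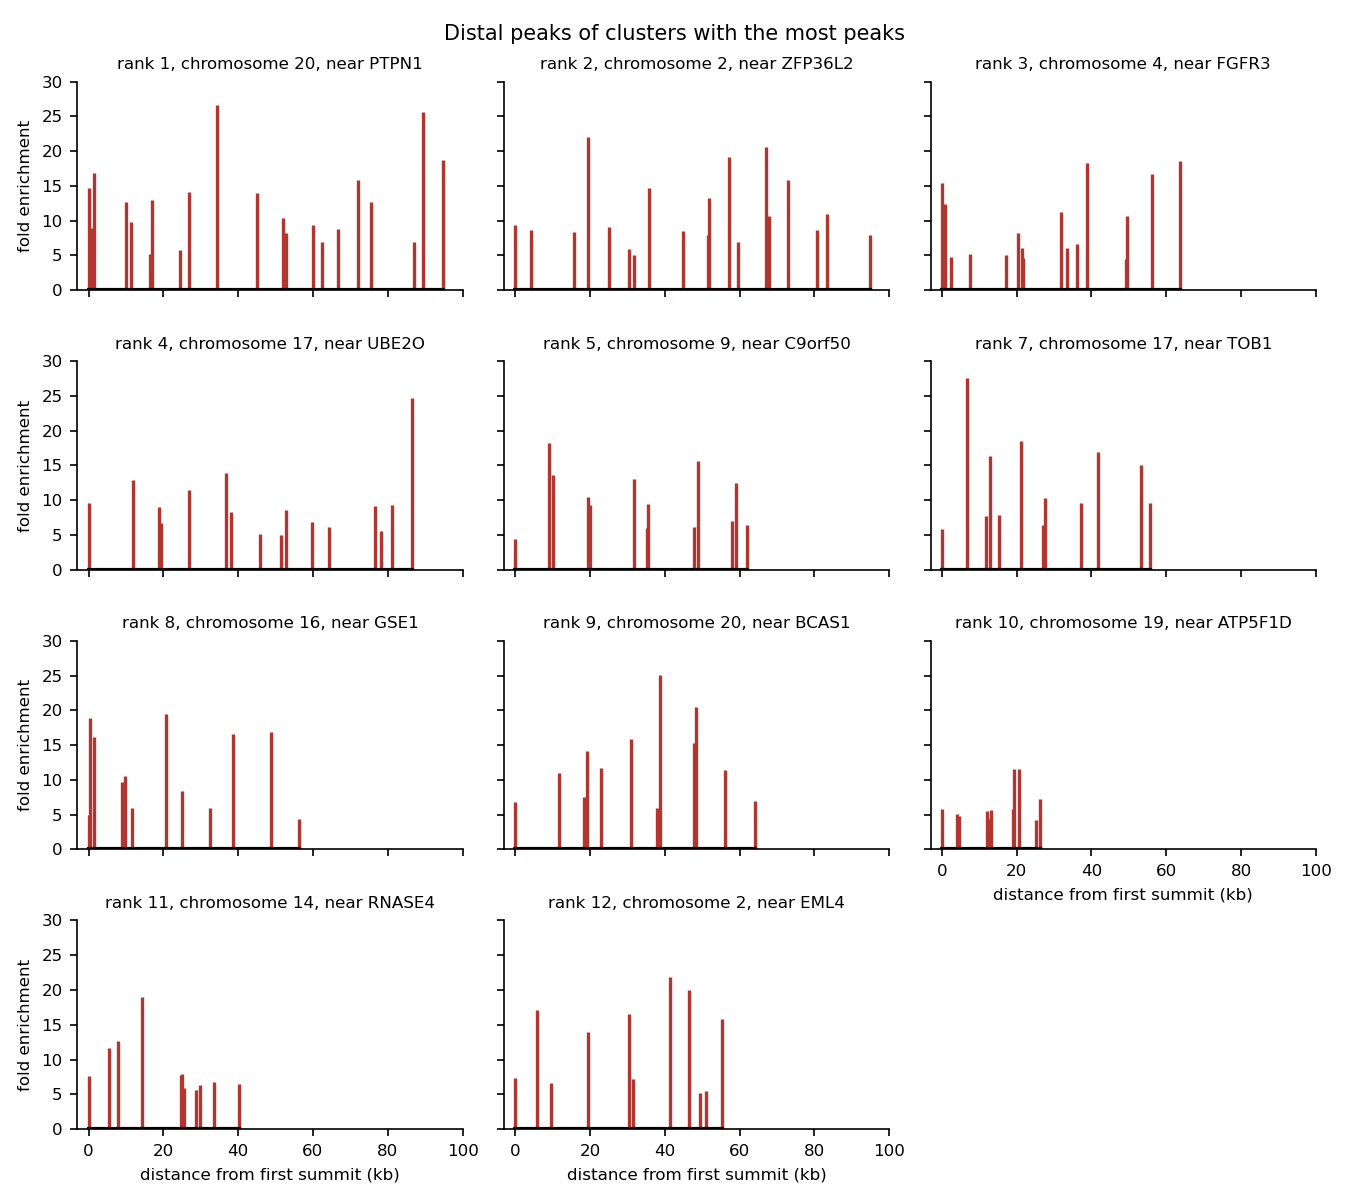
Each panel is 1 of 11 of the 12 clusters with the most peaks, with the distance from the first summit in kb (horizontal) and the fold enrichment of each distal peak (height of the red line), and the black bar marks the span. The PTPN1 and ZFP36L2 clusters reach 94.7 kb, while the ATP5F1D cluster ends at 26.2 kb with no fold above 11.6.

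Members of the fixed gene lists were near few clusters. Of 19111 protein-coding genes on the autosomes, 236 (1.23%) had the canonical TSS inside a cluster or within 50 kb of one. Among 24 liver transcription factor genes there were 2 (8.33%, interval 1.03 to 27.0%), with HNF4A among them. Adult hepatocyte metabolism gave 1 of 24, AGXT, immediate early genes 1 of 24, IER3, WNT targets 1 of 18, NOTUM, and housekeeping genes 1 of 24. None of 24 plasma protein genes, 15 fetal liver genes, 18 YAP and TEAD targets, 21 blood, 19 neuronal or 20 muscle genes was near a cluster. A TSS peak, which 62.5% of all protein-coding genes had, was present at 21 of 24 liver transcription factor, 20 of 24 plasma protein, 11 of 24 metabolism, 24 of 24 housekeeping and 3 of 21 blood genes. With lists of this size the intervals of all of them include the share over all genes.

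HNF4A encodes a nuclear receptor needed for hepatocyte gene expression. Its cluster lay on chr20:44384529-44434353 and had 8 peaks, 7 of them inside the gene and outside the exons of its canonical transcript. In order along the chromosome their folds were 13.6, 9.82, 20.4, 6.21, 30.0, 7.49, 19.4 and 25.3. Strong and weak peaks were thus interspersed, and 4 of 8 summits held 53 to 113 fragments while the other 4 held 12 to 22. The median fold, 16.5, was the second highest of the 110 clusters. The canonical TSS lay 28.8 kb before the first summit with a fold of 18.3, and 2 of the 8 peaks lay within 1000 bp of another annotated start of a transcript.

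AGXT encodes the liver peroxisomal enzyme alanine-glyoxylate aminotransferase. Its cluster, on chr2:240832415-240876574, had folds of 27.7, 22.99, 19.4, 15.4, 17.9, 6.70, 22.1 and 13.3, with a median of 18.7, the highest of all clusters. Only 1 of the 8 peaks had a fold under 13. The TSS of AGXT lay inside with a fold of 14.9, below 6 of the 8 distal peaks around it.

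IER3, an immediate early gene linked to cell survival, lay 4.59 kb from 9 peaks on chr6:30749141-30789813. Their folds ran from 5.79 to 18.1 with a median of 11.5, and the TSS of IER3 had a fold of 6.94. NOTUM, which encodes a secreted deacylase that inactivates WNT proteins, lay 30.8 kb from 9 peaks on chr17:81991985-82020086 and had a TSS fold of 13.03. Of those 9 peaks 8 were in ASPSCR1, and 10 protein-coding genes had a TSS within 50 kb, so NOTUM was 1 of many neighbours. Within 1000 bp of an annotated transcript start that is not the canonical one lay 4 of the 9 peaks (44.4%). Folds there were low, with a median of 7.25, over a local background of 5.52 expected fragments, while the median number of fragments was 41.

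Further clusters are named here because of their values or neighbours, a choice made after these were seen. The highest fold of any clustered peak, 35.9 with 86 fragments, opened a cluster of 8 peaks on chr6:167204129-167239089, whose only protein-coding TSS within 50 kb was that of GPR31, 46.2 kb away. The highest number of fragments, 142, lay in a cluster with 9 of its 10 peaks in HS1BP3, on chr2:20553697-20597225. An 8-peak cluster on chr14:34024005-34060297 had a peak of fold 33.8. It lay within the annotated bounds of EGLN3 over all transcripts, but 72.9 kb from the canonical TSS of this oxygen-sensing prolyl hydroxylase gene. All 9 peaks of a cluster on chr17:55284277-55314235 lay in HLF, a PAR bZIP factor gene expressed in liver, and all 10 of a cluster on chr2:111909236-111995428 lay in MERTK, a receptor for apoptotic cells. The MERTK cluster was the sparsest of all, at 1.16 peaks per 10 kb, with gaps of 6.26 to 12.3 kb.

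SREBF1, which encodes the transcription factor SREBP-1 of fatty acid synthesis, had its TSS inside a cluster on chr17:17806844-17850195. Folds along it were 9.53, 5.06, 8.46, 21.5, 33.0, 15.3, 9.72 and 8.92, so a central run of 3 peaks stood above the ends. Of the 8 peaks, 3 (37.5%) lay within 1000 bp of an annotated transcript start that is not the canonical one, against 12.6% of all clustered peaks. The peak of fold 33.0, with the HNF4A and PU.1 motifs shown above, took 29.6% of the summed fold.

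MicroRNA genes also started inside clusters, 16 in 14 clusters, of which 15 were found in the RefSeq miRNA table of GRCh38.p14. No share was computed over all miRNA genes, so the count does not show whether clusters hold more of them than other regions. MicroRNAs bind mRNAs mainly through the seed, bases 2 to 8, which is in capitals below. The 4 shown are the 5p products of MIR21, MIR26A1, MIR33B and MIR196B, chosen after the list was seen because they belong to widely studied families, and their seeds all differ.
hsa-miR-21-5p: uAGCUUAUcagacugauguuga
hsa-miR-26a-5p: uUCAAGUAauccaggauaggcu
hsa-miR-33b-5p: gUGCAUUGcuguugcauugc
hsa-miR-196b-5p: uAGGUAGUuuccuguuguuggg

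MIR21, at chr17:59841273-59841294 for the mature product, lay among 9 peaks on chr17:59829476-59855781, near the end of VMP1. Their folds ran from 4.54 to 17.6, with 81 fragments at the most, and 1 of the 9 summit sequences was found 74 times in hg38. MIR33B lies in an intron of SREBF1 and so within the cluster described above. MIR26A1 was in a cluster of 10 peaks on chromosome 3, on which folds ran from 5.90 to 18.7. MIR196B was in the HOXA gene cluster, where 8 distal peaks on chr7:27122484-27171501 had folds of 6.06 to 18.7 and the starts of 6 HOXA genes lay inside. Peaks at a miRNA gene do not measure the level of the miRNA.

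Compared with distal peaks outside clusters, clustered peaks were not higher in fold but stood on more fragments. Median fold was 9.59 (interval 9.30 to 9.90) in clustered peaks and 9.84 (9.79 to 9.90) in the 41735 other distal peaks. The number of fragments over the summit, solved from the deposited fold and p-value, had a median of 23 (21 to 24) in clustered peaks and 14 in other distal peaks. The local background expected at the summit had a median of 1.30 fragments in clustered peaks and 0.407 in other distal peaks. Fold divides fragments plus 1 by background plus 1, so both parts of the ratio were larger in clusters. Of clustered peaks, 11.0% rested on 10 or fewer fragments, against 33.1% of other distal peaks. A background of at most 0.176, the most common rounded value among distal peaks, was found in 0.592% of clustered and 13.8% of other distal peaks. Clustered peaks were also wider, with medians of 180 and 157 bp, and within each of 5 width classes their median fold was lower than that of other distal peaks, by ratios of 0.891 to 0.976. No replicate separates these differences from the library, and the neighbours in a cluster share their local background.

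The same pattern ran through the group sizes. Median fragments were 12 for single peaks, 16 in groups of 2 to 3, 19 in groups of 4 to 7 and 23 in clusters. Median background was 0.272, 0.554, 0.888 and 1.30 fragments in the same order, while median fold stayed between 9.59 and 9.97. GC content within 50 bp of the summit had medians of 49.5, 50.5, 53.5 and 55.4%. Fragments, background and GC thus went up with group size while fold did not. Groups were formed by the closeness of called peaks, and the peak caller takes its local background from reads around the summit, neighbouring peaks included, so background and the fragments needed for a call are tied to the rule and are given as a description.

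**Figure D3:**
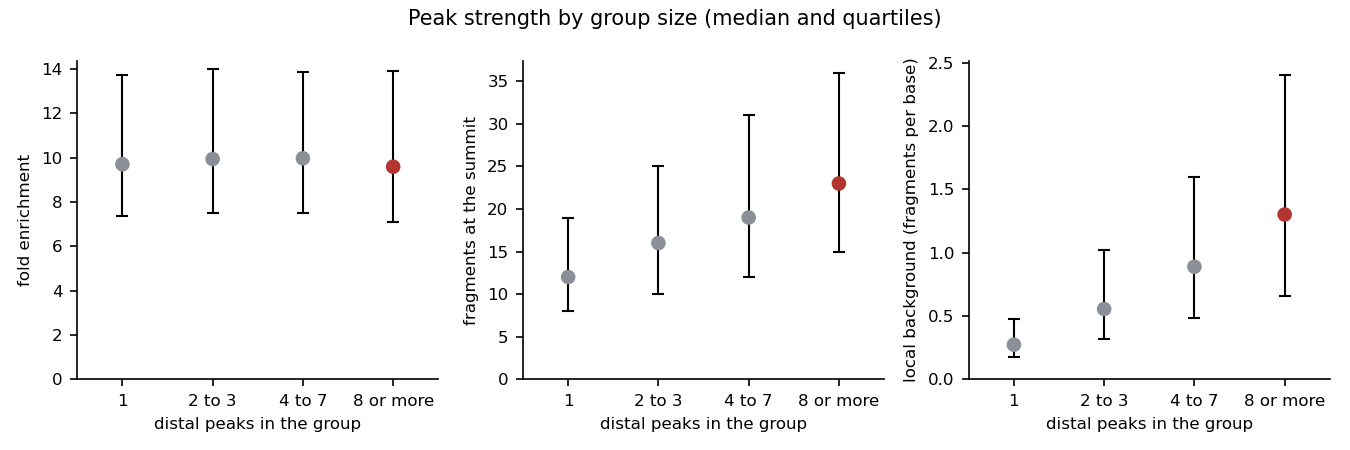
Median (point) and quartiles (bars) of fold enrichment, of fragments at the summit and of local background in expected fragments, by number of distal peaks in the joined group, with clusters in red. Fold stays near 10 in every class, while fragments go up to 23 and background to 1.30 in clusters.

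Strength varied among the peaks of a cluster as well as between clusters. Median fold per cluster ranged from 5.66 to 18.7, with quartiles of 8.57 and 11.0, whereas the highest peak of a cluster had a median of 2.02 times the median fold of its own cluster. That highest peak took a median of 20.05% of the summed fold, from 10.0 to 31.7%. A peak of fold 20 or more was present in 53 of 110 clusters, a count not made for smaller groups. The highest peak was the first or the last in 36 of 110 clusters (32.7%, interval 24.1 to 42.3%), while first and last peaks made up 21.7% of clustered peaks. First and last peaks had a median fold of 10.2 (9.45 to 11.6) and inner peaks of 9.41 (9.16 to 9.81), with overlapping intervals. In fragments the order was the other way round, with medians of 21 for first and last peaks and 23 for inner peaks, so the difference depends on the measure.

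Summits inside the bounds of a protein-coding gene, over all its transcripts, but outside exons of canonical transcripts were counted as in introns. Exons of other transcripts and stretches before the canonical TSS can thus be counted as introns. The share in introns of protein-coding genes was lower for clustered than for other distal peaks, at 44.7% (41.6 to 47.8%) against 52.1%. The share between genes was higher, at 37.7% (34.7 to 40.7%) against 32.6%, as was the share in long noncoding RNA genes alone, at 14.5% (12.4 to 16.8%) against 11.5%. Shares in coding gene exons were 3.16 and 3.83%, with overlapping intervals. Among the clusters, 43 held the TSS of a protein-coding gene, 91 had one inside or within 50 kb, 24 lay wholly in a single protein-coding gene, and 32 had no peak in any. These counts were not made for smaller groups, so they do not show whether clusters are closer to genes. Per peak, the nearest protein-coding TSS lay a median of 31.4 kb (27.6 to 34.4 kb) from clustered and 35.2 kb (34.6 to 35.9 kb) from other distal peaks. Of the 236 genes near clusters 74.2% (68.1 to 79.6%) had a TSS peak, against 62.4% of the other genes and 62.5% of all, but the median fold of those TSS peaks was 15.3 near clusters and 18.1 elsewhere. Some distal peaks are starts of other transcripts: 12.6% (10.6 to 14.8%) of clustered and 9.91% of other distal peaks lay within 1000 bp of an annotated transcript start, and 51 of 110 clusters had no such peak. When those peaks were left out, 63 clusters remained.

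Clusters were unevenly spread over chromosomes. Chromosomes 2 and 17 had 18 each, chromosome 14 had 10, chromosomes 1 and 20 had 9 each, and chromosomes 5, 13 and 18 had none. HepG2 is known to carry extra copies of chromosomes 2, 14, 16, 17 and 20, and these 5 held 60 of the 110 clusters (54.5%, interval 44.8 to 64.1%), against 26.7% of other distal peaks and 25.3% of all joined groups. Of distal peaks on these chromosomes 4.87% were in clusters, against 1.43% on the other autosomes, and among the 5 the share ran from 2.47% on chromosome 16 to 7.39% on chromosome 17. Chromosome 16 was thus close to chromosome 6, at 2.40%, and below chromosome 21, at 3.77%, while chromosome 19, with 25.8 distal peaks per Mb against 27.3 on chromosome 17, had 1.78%. By group size the share on these 5 chromosomes was 23.8% of single peaks, 27.4% of groups of 2 to 3, 33.3% of groups of 4 to 7 and 54.5% of clusters. Distal peaks were also denser there, at 19.9 per Mb against 13.6 per Mb elsewhere. Copy number was not measured here, so extra copies and a denser set of elements cannot be told apart. Clustered peaks had more fragments than other distal peaks in both sets, with medians of 24.5 and 16 on the 5 chromosomes and of 21 and 13 on the others.

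**Figure D4:**
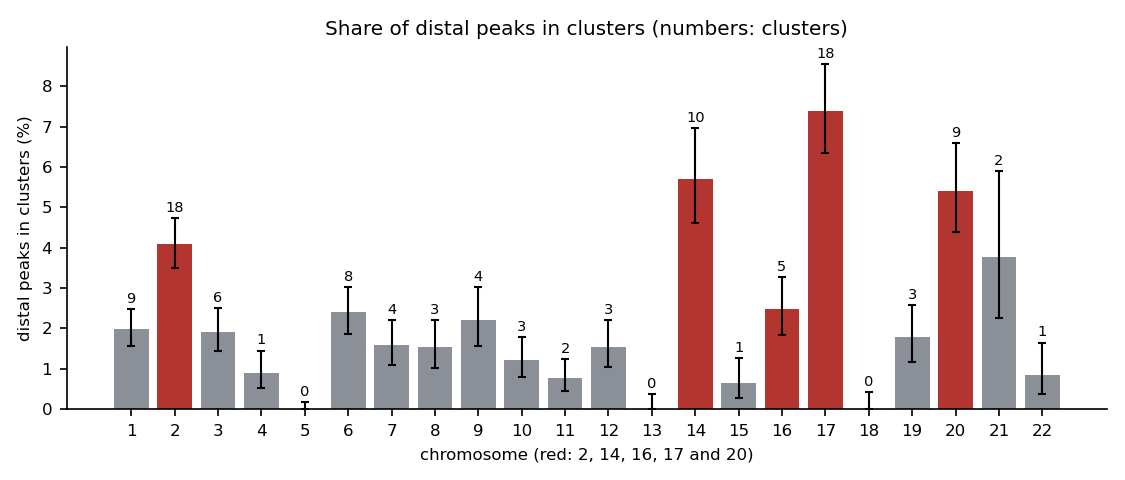
Share of each autosome's distal peaks that lay in clusters (bars, percent, with 95% exact binomial intervals) and number of clusters above each bar, with chromosomes 2, 14, 16, 17 and 20 in red. Chromosome 17 reaches 7.39% with 18 clusters, and chromosomes 5, 13 and 18 have none.

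Some clusters came in pairs. In 9 pairs, 18 clusters in all, the gap between the last summit of 1 and the first of the next was at most 200 kb, and 4 of the 9 were on chromosome 17. The closest pair, 38.1 kb apart, was that at PRPSAP1 and UBE2O on chromosome 17.

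The sequence at summits was not used to choose the clusters, and 19 motifs were searched on both strands in the 50 bp to either side of each summit. The liver motifs were HNF4A (CAAAGTCCA), FOXA (TGTTTAC), HNF1, CEBP (TTGCGCAA) and NR5A2 (TCAAGGTCA), and others included ONECUT (ATCAATCA), GATA factors (AGATAAG), TEAD (ACATTCC), AP-1 (TGANTCA), TCF/LEF (ATCAAAG), STAT (TTCCNGGAA), NRF2, CTCF and NFI. Promoter motifs were GABPA/ETS (CCGGAAG), SP/KLF (GGGGCGGGG) and NRF1, and motifs of other cell types were PU.1 (GAGGAAGT) and MYOD (CAGCTGTC). A match had to be exact to the single spelling of a motif, with N for any base, so variant sites were not counted. It is a description of the letters, not a bound site.

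FOXA proteins are pioneer factors that open chromatin in liver cells. The FOXA motif was in 32 of 1014 clustered windows (3.16%, interval 2.17 to 4.43%), against 6.17% (5.94 to 6.41%) of other distal windows and 0.592% of windows 2000 bp to either side of clustered summits. CTCF, which marks loop anchors, had its motif in 5.33% (4.03 to 6.89%) of clustered windows, 8.54% (8.28 to 8.81%) of other distal windows and 0.542% of the windows 2000 bp away. Both motifs were thus more frequent at clustered summits than beside them, but less frequent than at other distal summits. By group size the FOXA share was 7.26, 5.46, 4.42 and 3.16% from single peaks to clusters, and the CTCF share 9.69, 7.93, 6.34 and 5.33%. GC content differed in the same direction as group size. With the other distal peaks weighted to the GC content of clustered peaks, in 4 bands, their FOXA and CTCF shares were 5.77 and 10.0%. Within bands, FOXA intervals lay apart below 45% GC (3.41 against 8.28%) and at 55 to 65% (2.32 against 6.985%). They overlapped at 45 to 55% (4.88 against 5.37%) and above 65% (1.21 against 1.36%). CTCF was lower in clustered windows in all 4 bands, with overlapping intervals below 45% and above 65%. These comparisons were added after the data were seen.

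The NRF2 motif, of the factor that answers oxidative stress, was the 1 motif with a higher share in clustered windows whose interval did not overlap that of other distal windows, at 3.45% (2.42 to 4.77%) against 2.21% (2.07 to 2.36%) of other distal windows. It can share letters with the AP-1 motif, and without the windows where the matches overlapped the shares were 3.16% (2.17 to 4.43%) and 1.95% (1.82 to 2.09%). The intervals overlapped, however, within 25 bp of the summit, at 1.48% (0.830 to 2.43%) and 1.04% (0.945 to 1.14%), and without chromosomes 2, 14, 16, 17 and 20, at 3.15% (1.73 to 5.23%) and 2.15% (1.99 to 2.32%). AP-1 was the most frequent motif in clustered windows, at 8.09% (6.48 to 9.94%) against 6.86% of other distal windows, with intervals that overlap. At least 1 AP-1 window was present in 55 of 110 clusters, a count not made for smaller groups. Weighted to the GC content of clustered peaks, the shares of other distal windows were 6.31% for AP-1, below the clustered interval, and 2.12% for NRF2. Within each GC band the intervals of both motifs overlapped, and below 45% GC AP-1 was lower in clustered windows. The weighting was added after the data were seen. TEAD was at 4.14 and 3.66%, TCF/LEF at 2.96 and 2.88%, GATA at 2.37 and 2.03%, and HNF4A at 1.58 and 1.76% in clustered and other distal windows, all with overlapping intervals. For HNF4A the order turned without chromosomes 2, 14, 16, 17 and 20, at 2.703% (1.40 to 4.67%) in clustered and 1.75% (1.601 to 1.90%) in other distal windows, again with overlapping intervals. Intervals of the remaining 11 motifs overlapped too, and NFI and NRF1 were found in 0 of 1014 clustered windows, for which the exact interval reaches up to 0.363%. Peaks of 1 cluster are neighbours and were counted as if independent.

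**Figure D5:**
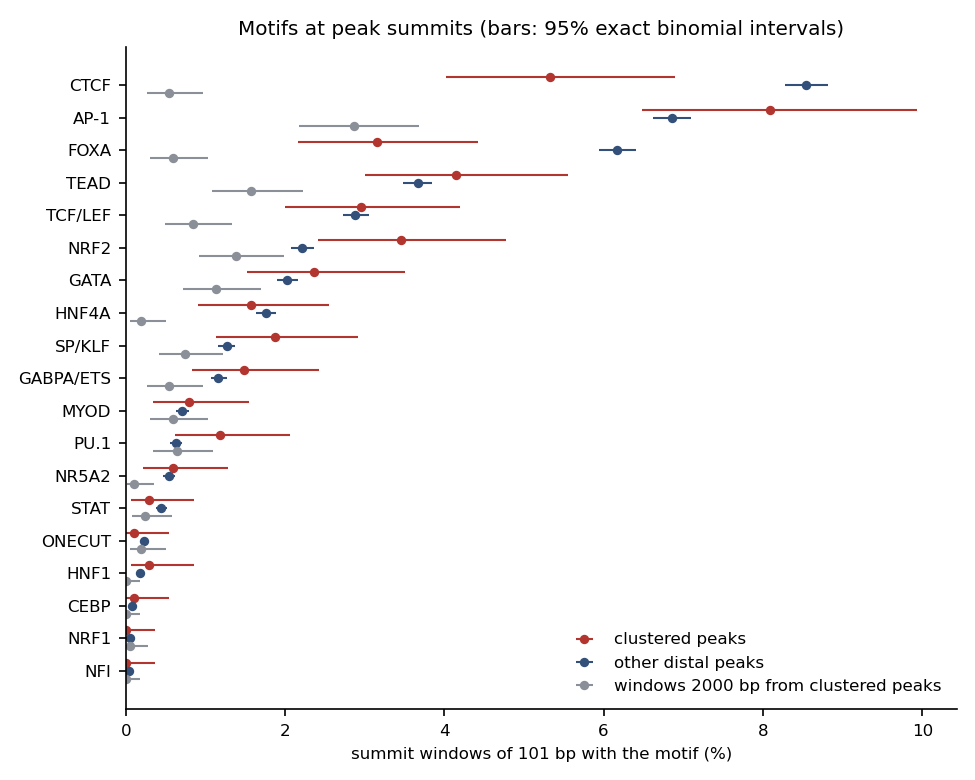
Share of windows of 50 bp to either side of a summit with each motif (horizontal, percent, with 95% exact binomial intervals) for clustered summits (red), other distal summits (blue) and windows 2000 bp to either side of clustered summits (grey). FOXA and CTCF lie lower in clustered than in other distal summits, at 3.16 and 5.33% against 6.17 and 8.54%, and NRF2 lies higher.

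Few windows in any 1 cluster held a liver motif. Any of the 5 liver motifs was in 5.52% (4.20 to 7.11%) of clustered windows and 8.64% of other distal windows. Counts per cluster depend on this share and on the number of peaks, and they were not made for smaller groups. In 62 of 110 clusters no window held a liver motif, and no cluster had more than 2 such windows, a number reached in 8 clusters. The ZFP36L2 cluster was among these 8, with 1 FOXA and 1 HNF1 window, and so was the TOB1 cluster, with 2 FOXA windows. Repeated sequence was rare, since 6 of 1014 clustered summits (0.592%, interval 0.217 to 1.28%) had a 50 bp sequence found more than once in hg38, against 2.22% of other distal summits.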

How the data were processed

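Bulk ATAC-seq peaks of the 0.1% FA cryopreserved HepG2 library were used, and no other library was analysed here. Per the methods, the authors mapped reads to GRCh38 with Bowtie2 in snakePipes, used samtools to remove duplicates, and ran MACS2 for the peaks (version not given in the sources used here). The sample records name bcl2fastq, cutadapt and deepTools 3.5.5. The deposited values of each peak were a score (the -log10 q-value scaled and rounded down), the ratio or fold enrichment at the summit, the -log10 p-value and -log10 q-value, and the summit position. How read ends were shifted is not given, which could move summits by a few bases.

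Fragments over the summit and the background expected there were recovered from fold and -log10 p, and came out whole within 0.01 for 99.7% of peaks. The joins, the solver and the motif search were tested on simulated data. Sequences and annotation were hg38 and GENCODE 44, and 0 columns of other samples were present. With 1 library there was no test. The clusters, gene lists and motifs were chosen with earlier results of these data known. Named genes are all protein-coding genes with the TSS inside or within 50 kb of the 12 top-ranked clusters (ties by shorter span), and list members within 50 kb of any. Alternatives were other joining and TSS distances, q-value limits, gene distances, motif windows and cluster sizes, and leaving out chromosomes 2, 14, 16, 17 and 20. Work was done in Python 3.11.15 with pysam 0.24.0, scipy 1.17.1, pandas 2.3.3, numpy 2.4.6 and, for plots, matplotlib 3.10.9. Of the genes and clusters that this rule names, some are not reported here.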

Additional observations from a re-analysis of the deposited data

Results flagged for a closer look

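Groups of 8 or more joined peaks were also present on sequences that the main count leaves out. On chromosome X, 10 distal peaks on chrX:153610013-153651965 joined into 1 cluster of 42.0 kb, with folds of 5.25 to 10.9, and the TSS of DUSP9, a phosphatase gene, lay inside it. The unplaced contig GL000225.1 held 1 cluster of 10 peaks with folds of 5.49 to 26.3, and the unplaced contig GL000216.2 held 1 of 8 peaks with folds of 4.36 to 12.4. The gene annotation used does not cover these contigs, so distance from a TSS was not assessed there. Neither the other contigs nor chromosome Y reached 8 joined peaks.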

How the results depend on the processing

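The number of clusters depended strongly on the rule. Joining at 10 kb gave 44 clusters and at 15 kb 193. Requiring more than 2500 bp from a TSS gave 55, requiring more than 1000 bp from any annotated transcript start gave 63, and a -log10 q of at least 10 gave 25. With more than 500 bp (147 clusters), a -log10 q of at least 5 (99) or unique summit sequences (108, chosen after seeing the data) it stayed within 1.5 times. Median fold was 9.19 at 10 kb and 10.8 at the q-value limit of 10. The share of genes near clusters was 0.424 and 2.55% at 10 and 15 kb, 2.05% at more than 500 bp, 0.528% at more than 2500 bp, 0.487% for any transcript start, 0.188% at the q-value limit of 10, 0.727 and 1.96% for genes within 25 and 100 kb, and 0.744% without chromosomes 2, 14, 16, 17 and 20. The FOXA share in clustered windows was 1.97% within 25 bp of the summit, against 3.25% of other distal windows, and 2.03% without those chromosomes, against 6.38%. The CTCF share within 25 bp was 1.97%, against 3.59%. The share of clusters on the 5 chromosomes was 44.3% from 6 peaks and 64.5% from 10 peaks, and 50.3 to 80.0% under the 7 other joining rules. First and last peaks were higher by 7.92% in fold but had -8.70% in fragments, a reversal, and the cause was not tested. Of 110 recomputed list shares 92 stayed within the interval, and those that did not all fell to 0%. The intervals are wide, and for lists with no gene near a cluster they start at 0, so staying within them says little. The liver transcription factor share was 0% at 10 kb, at the q-value limit of 10, within 25 kb and without the 5 chromosomes. Under the other settings it was 4.17 to 12.5%. No paired analysis was possible because 1 library was analysed. Depth limits weak peaks, and without a replicate no value has an error between libraries.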
